A study of Mus musculus with 18 samples.

Results

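Ifi202b, Hsd17b7, Fbxo44, Ptprn2 and Mid1 are 5 genes of the mouse heart that were taken by name from tables of 10597 genes, selected on their RNA values in these libraries, abundant in some hearts and low in others of the same genotype or of the other one. Their RNA levels are therefore given as a description without a test. Whether footprint values entered the choice is not recorded, so the adjusted p of a member's footprints is also a description.

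The left ventricle was taken from 5 mice carrying the mORF4/NBDY knockout (hearts 6, 7, 8, 9 and 10) and from 4 wild-type mice (hearts 1, 2, 3 and 4). All animals were untreated C57BL/6 males aged 20 weeks, per the labels. NBDY, also called mORF4, is a microprotein made from the gene Nbdy. From every heart came 1 library of poly-A RNA and 1 of ribosome footprints, the mRNA stretches that ribosomes shield from nuclease, which makes 18 libraries in all. The labels do not say how the knockout allele was made or whether the animals were littermates.

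The library sums over listed genes were 15.8 to 20.2 M RNA reads in knockout and 11.2 to 12.4 M in wild type (M, mega-reads). For footprints they were 22.9 to 40.8 M in knockout and 6.67 to 36.7 M in wild type, with wild-type heart 2 the shallowest. RNA depth did not overlap between the genotypes, so RNA differences that go with depth and with genotype cannot be told apart. Values are normalized reads, that is, read counts divided by 1 size factor per library. Because of that factor, 3 reads, the upper limit that a count of 0 allows, were worth 2.10 to 2.699 normalized reads in knockout RNA libraries and 3.80 to 4.18 in wild-type ones, and 1.65 to 2.96 in knockout footprint libraries and 1.82 to 10.4 in wild-type ones. These limits cover counting error only. Nbdy RNA was 73.5 ± 10.7 in knockout and 111 ± 7.10 in wild type (SD, n = 5 and 4, adjusted p = 0.00246 in limma), and its footprints were 14.3 ± 3.46 in knockout and 183 ± 116 in wild type (adjusted p = 0.0191), with no overlap in either assay. Every one of the 10 cardiomyocyte marker genes was listed, and their summed RNA was 1869000 to 2085000 normalized reads in knockout and 2016000 to 2340000 in wild type. Summed RNA of the 3 listed atrial markers was 5257 to 8852 in knockout and 15050 to 16770 in wild type. In limma, 2 of these 3 were called lower in knockout, while over all genes 25.1% were called lower and 24.3% higher. The third, Myl7, was not called, with RNA at 48.3 to 791 in knockout and 11.4 to 266 in wild type. For 10 macrophage markers the sum was 4865 to 6758 in knockout and 5234 to 5894 in wild type. For 7 endothelial markers it was 17920 to 21800 in knockout and 21220 to 25190 in wild type, with 4 called lower and 1 higher. Summed RNA of the 5 listed skeletal muscle markers was 37790 to 53660 in knockout and 68420 to 108300 in wild type, and that of the adipocyte list, of which only Cidea was in the tables, was 430 to 571 in knockout and 627 to 721 in wild type. In whole ventricle, fewer cells of a type and less RNA per cell cannot be told apart.

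The members belong to different pathways. Ifi202b encodes p202, an interferon-inducible DNA-binding protein of the PYHIN (Ifi200) family that restrains the DNA sensor AIM2, and is a gene known for expression that differs between inbred mouse strains. Hsd17b7 encodes a ketosteroid reductase that removes a keto group from sterol intermediates of cholesterol synthesis and can also reduce estrone to estradiol. Fbxo44 encodes an F-box protein, the part of an SCF ubiquitin ligase that binds the substrate. Ptprn2 encodes phogrin, a receptor-type tyrosine phosphatase family member in the membrane of dense-core vesicles, best known from neuroendocrine cells. Mid1 encodes a microtubule-bound ubiquitin ligase that binds alpha4 (Igbp1) and through it lowers the catalytic subunit of the phosphatase PP2A.

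On the GRCm38 build, Ifi202b (ENSMUSG00000026535) lies at chr1:173962569-173982844 and Hsd17b7 (ENSMUSG00000026675) at chr1:169949535-169969242, a gap of 3.99 Mb. Fbxo44 (ENSMUSG00000029001) lies at chr4:148152799-148160183, Ptprn2 (ENSMUSG00000056553) at chr12:116485695-117278167 and Mid1 (ENSMUSG00000035299) at chrX:169685199-169990798, a gene that spans the pseudoautosomal boundary in laboratory mice. Ptprn2 overlaps 6 annotated genes and Mid1 overlaps 3, none of them in the tables, while the other members overlap none. The RNA kit does not mark strand, so reads from such overlapping genes could not be told apart from those of Ptprn2 and Mid1.

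The promoters of the 4 members with RNA under 20 normalized reads in at least 1 heart are shown, since these are the genes that were nearly silent in some ventricles. Each runs 5′ to 3′ on the gene's strand from 250 bases before to 50 bases after an annotated start, from RefSeq on GRCm38.p6. They are chr1:173982795-173983094 (minus strand) for Ifi202b, chr1:169969156-169969455 (minus) for Hsd17b7, chr4:148160045-148160344 (minus, the first of 3 starts) for Fbxo44 and chr12:116485470-116485769 (plus) for Ptprn2. Capitals mark matches on either strand to the TATA box with the letters TATAAA, to the CCAAT box, to the GC box with the letters GGGCGG, to the E-box with the letters CACGTG, or to the core of the interferon-stimulated response element.
Ifi202b: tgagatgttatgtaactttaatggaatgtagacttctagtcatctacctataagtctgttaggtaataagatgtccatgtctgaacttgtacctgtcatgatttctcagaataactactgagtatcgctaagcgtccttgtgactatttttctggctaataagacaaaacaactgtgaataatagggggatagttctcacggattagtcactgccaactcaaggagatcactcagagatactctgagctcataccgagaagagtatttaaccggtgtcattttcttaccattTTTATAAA
Hsd17b7: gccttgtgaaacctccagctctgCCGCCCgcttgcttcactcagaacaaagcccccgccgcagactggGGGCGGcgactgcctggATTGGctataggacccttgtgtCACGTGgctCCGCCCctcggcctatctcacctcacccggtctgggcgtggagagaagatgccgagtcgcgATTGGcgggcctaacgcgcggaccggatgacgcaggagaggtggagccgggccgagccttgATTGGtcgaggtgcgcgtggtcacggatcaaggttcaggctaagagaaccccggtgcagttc
Fbxo44: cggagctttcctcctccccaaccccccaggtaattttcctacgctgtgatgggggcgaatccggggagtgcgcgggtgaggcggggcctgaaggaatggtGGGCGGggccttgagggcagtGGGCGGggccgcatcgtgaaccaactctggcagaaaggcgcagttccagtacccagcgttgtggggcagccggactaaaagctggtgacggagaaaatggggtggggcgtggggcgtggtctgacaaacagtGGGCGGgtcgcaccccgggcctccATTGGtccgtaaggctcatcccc
Ptprn2: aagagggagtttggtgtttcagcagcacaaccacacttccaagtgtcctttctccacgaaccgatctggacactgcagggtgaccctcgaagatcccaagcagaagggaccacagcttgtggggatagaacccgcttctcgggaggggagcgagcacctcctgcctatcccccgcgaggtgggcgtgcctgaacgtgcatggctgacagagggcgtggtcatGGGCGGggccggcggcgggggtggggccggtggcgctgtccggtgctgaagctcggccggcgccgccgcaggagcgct

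Among the 4 promoters shown, that of Ifi202b was lowest in G or C, with 37% G or C and 5 CpG, against 64.7% and 27 CpG for Hsd17b7, 65.3% and 21 for Fbxo44 and 66% and 24 for Ptprn2. Over 32851 promoters of this length the medians were 52.7% and 7 CpG. The Ifi202b window held TATAAA on both strands in 1 overlapping stretch, downstream of its start, and no match to the core of the interferon-stimulated response element. TATAAA occurred in 13.6% of all promoters and that core in 3.44%. Hsd17b7 had 3 CCAAT boxes, 3 GC boxes and 1 E-box, Fbxo44 had 1 CCAAT box and 3 GC boxes, and Ptprn2 had 1 GC box. Among all promoters 37.4% held CCAAT, 35.7% held GGGCGG and 7.15% held CACGTG. The 3 annotated Mid1 starts had 43.7%, 53.7% and 55% G or C, with 2, 6 and 13 CpG. The other starts of Fbxo44 had 68% and 57% G or C, with 22 and 9 CpG and no GC box.

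Ifi202b RNA was present in 2 hearts of each genotype and at 0 in the rest. Among knockout hearts it was at 50.6 normalized reads in heart 8 and 71.2 in heart 9, with no read in hearts 6, 7 and 10. Among wild-type hearts it was at 45.6 in heart 3 and 97.4 in heart 4, with no read in hearts 1 and 2. Footprints followed the RNA heart by heart. They were at 59.9 in knockout heart 8 and 151 in knockout heart 9, with 1 read in heart 7 and none in hearts 6 and 10, against 54.5 in wild-type heart 3, 172 in wild-type heart 4 and none in hearts 1 and 2. The same hearts thus carried both signals, and the genotypes overlapped completely. The RNA fold change, knockout over wild type, was -0.67 ± 1.80 on the log2(value + 1) scale (SE), and leaving out 1 heart moved it between -1.68 (without wild-type heart 1 or 2) and 0.53 (without wild-type heart 4), with 0.17 without wild-type heart 3. For footprints it was -0.48 ± 1.92 (limma adjusted p = 0.969), and the sign turned without knockout heart 6 or 10 (0.23) or wild-type heart 3 (0.35) or 4 (0.90). Where RNA was present, the footprint to RNA ratio was 1.19 and 2.12 in knockout hearts 8 and 9 and 1.20 and 1.77 in wild-type hearts 3 and 4, near the medians over all genes of 1.40 to 1.47 per heart.

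**Figure D1:**
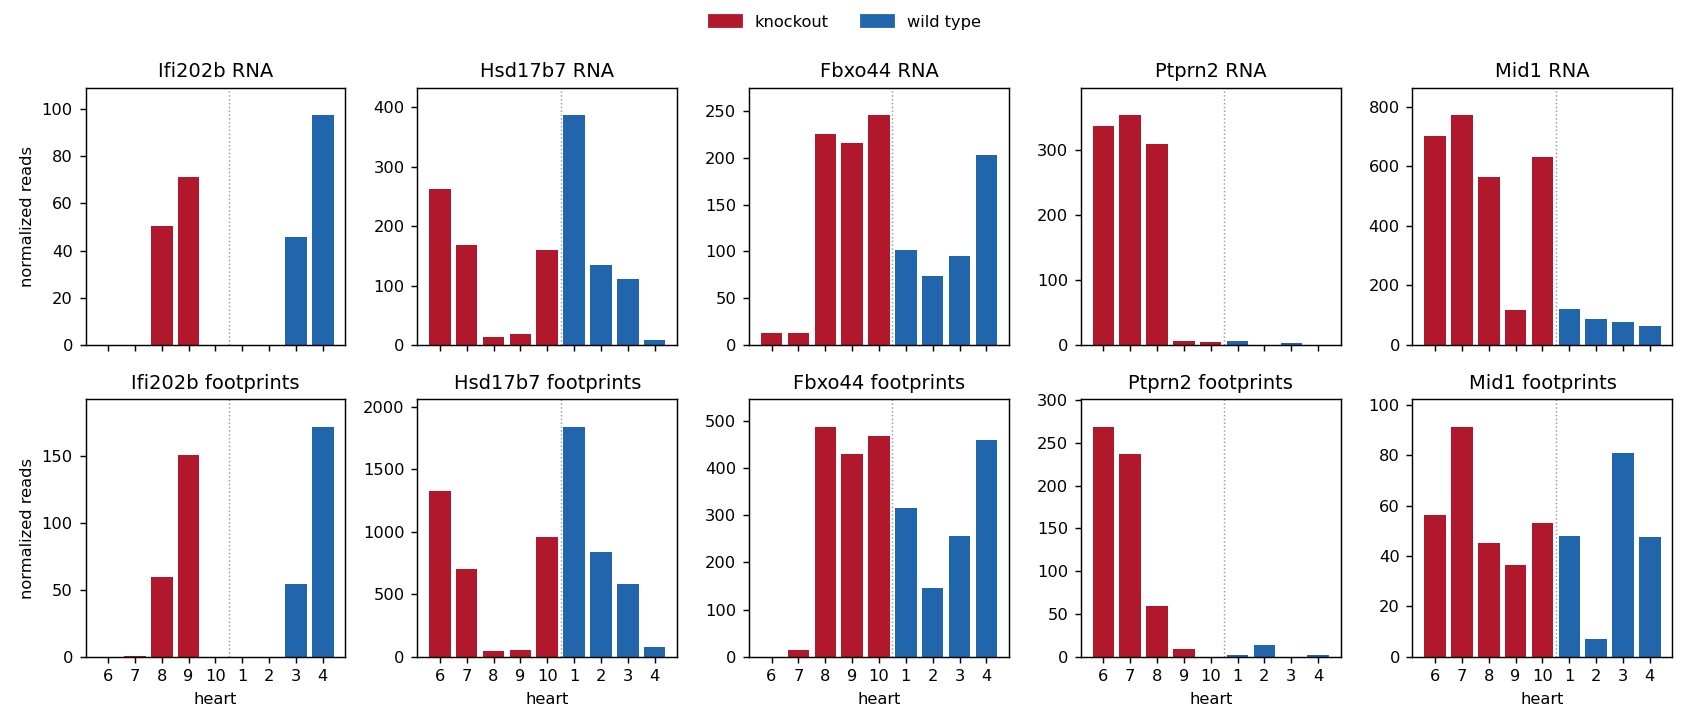
Normalized reads of the 5 members by heart, RNA above and footprints below, each panel with its own linear axis from 0; knockout hearts (6 to 10) are left of the dotted line and wild-type hearts (1 to 4) right of it. Each bar is 1 library, and the highest Ptprn2 RNA is 354 normalized reads in knockout against 5.57 in wild type.

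Hsd17b7 showed nearly the opposite pattern across the same hearts. Its RNA was at 262, 168 and 159 normalized reads in knockout hearts 6, 7 and 10 and at 13.03 and 19.0 in knockout hearts 8 and 9, against 387, 134 and 111 in wild-type hearts 1, 2 and 3 and 8.12 in wild-type heart 4. The highest heart exceeded the lowest 20.1-fold in knockout and 47.7-fold in wild type. Footprints were at 1324, 704 and 958 in knockout hearts 6, 7 and 10 and at 48.6 and 50.3 in hearts 8 and 9, against 1837, 839 and 581 in wild-type hearts 1, 2 and 3 and 78.0 in heart 4. The hearts low in RNA were the hearts low in footprints, and both genotypes contained high and low hearts. The log2 fold change was -0.24 ± 1.10 for RNA, with a range of -1.32 (without wild-type heart 4) to 0.49 (without wild-type heart 1), and the sign also turned without knockout heart 8 (0.35) or 9 (0.22). It was -0.80 ± 0.96 for footprints (limma adjusted p = 0.89), which became -0.16 without knockout heart 8, -0.17 without knockout heart 9, -0.19 without wild-type heart 1 and -1.70 without wild-type heart 4.

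Hsd17b7 gave many footprints for its RNA in every heart. The ratio was 5.05, 4.18, 3.73, 2.64 and 6.02 in knockout hearts 6, 7, 8, 9 and 10 and 4.75, 6.24, 5.21 and 9.61 in wild-type hearts 1, 2, 3 and 4. This was above the ratio of 78.82% to 98.59% of genes in the knockout hearts and 94.02% to 99.18% in the wild-type hearts. The highest ratio, in wild-type heart 4, rested on 6 RNA reads.

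Ifi202b and Hsd17b7 RNA ran against each other, with Pearson's r = -0.87 for RNA and -0.89 for footprints over the 9 hearts on the log2(value + 1) scale. Because the hearts fell into high and low ones, these coefficients describe the same split as the values. In 3 of the 4 hearts with Ifi202b RNA (knockout 8 and 9, wild-type 4), Hsd17b7 RNA was under 20, and wild-type heart 3 was the exception with 45.6 of Ifi202b and 111 of Hsd17b7. All 5 hearts without Ifi202b RNA had Hsd17b7 RNA above 100.

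**Figure D2:**
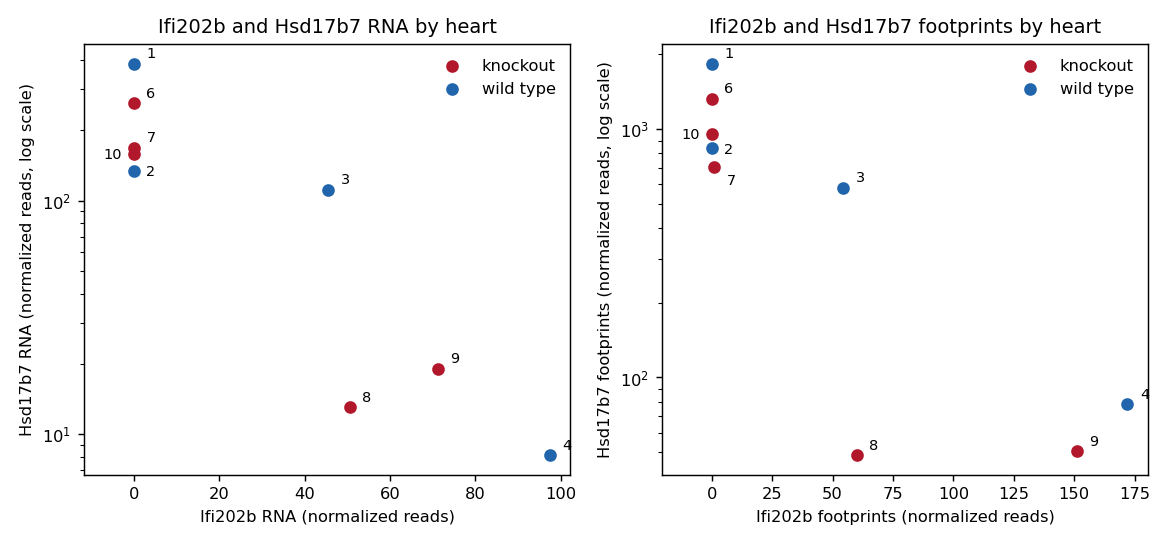
Ifi202b (linear x axis) against Hsd17b7 (log y axis) in normalized reads for RNA (left) and footprints (right), 1 point per heart labelled with its number. Knockout hearts 8 and 9 and wild-type heart 4 lie low and to the right, and wild-type heart 3 lies between with 45.6 and 111 normalized reads of RNA.

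Fbxo44 was nearly off in 2 knockout hearts. Its RNA was at 12.8 and 12.6 normalized reads in knockout hearts 6 and 7 and at 225, 216 and 246 in knockout hearts 8, 9 and 10, against 102, 73.4, 94.96 and 203 in wild-type hearts 1, 2, 3 and 4. The spread was 19.5-fold among knockout hearts and 2.77-fold among wild-type hearts, and the wild-type values fell between the low and the high knockout hearts. Footprints were at 0 and 15.4 in knockout hearts 6 and 7 and at 486, 428 and 468 in hearts 8, 9 and 10, against 316, 145, 255 and 458 in wild-type hearts 1, 2, 3 and 4. The knockout heart without a footprint read had 17 RNA reads. The log2 fold change was -0.57 ± 0.91 for RNA and became 0.04 without knockout heart 6 or 7, and -0.28 without wild-type heart 4, while leaving out knockout heart 8, 9 or 10 gave -0.958 to -1.004. For footprints it was -1.97 ± 1.35 (limma adjusted p = 0.854), which became -0.44 without knockout heart 6 and -2.63 to -2.67 without knockout heart 8, 9 or 10. On whole footprint reads edgeR gave -0.10 and DESeq2 -0.07. Apart from the heart at 0, the ratio of footprints to RNA was 1.22 to 2.16 in knockout and 1.98 to 3.11 in wild type.

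Ptprn2 was abundant in 3 knockout hearts and near 0 in the other 6 hearts. Its RNA was at 338, 354 and 310 normalized reads in knockout hearts 6, 7 and 8 and at 5.80 and 5.40 in knockout hearts 9 and 10, against 5.57, 0, 2.53 and 0 in wild-type hearts 1, 2, 3 and 4. Knockout hearts 9 and 10 had 7 and 6 reads and wild-type heart 1 had 4, so these 3 hearts could not be ordered at this depth. Footprints were at 269, 237 and 59.1 in knockout hearts 6, 7 and 8, 8.88 in heart 9 and 0 in heart 10, against 1.82, 13.8, 0 and 1.52 in wild-type hearts 1, 2, 3 and 4. Heart 8 had about as much RNA as hearts 6 and 7 and fewer footprints, with a ratio of 0.190 against 0.795 and 0.670. The log2 fold change was 4.99 ± 1.33 for RNA, from 4.40 without knockout heart 7 to 5.85 without knockout heart 10. It was 3.36 ± 1.495 for footprints (limma adjusted p = 0.851), from 2.60 without knockout heart 6 to 4.62 without knockout heart 10, where edgeR gave 5.40 (adjusted p = 0.883) and DESeq2 4.89 (adjusted p = 0.685) on whole reads. Because every wild-type library held 0 to 4 reads, these fitted values depend on the value added before the log. Adding 5 in place of 1 gave 3.665 for RNA and 2.62 for footprints in limma. The authors' deposited table gives much smaller log2 fold changes, 0.42 for RNA and 0.08 for footprints, knockout over wild type, and how they were made is not stated there. Of 10 markers of neurons, Schwann and neuroendocrine cells 1, Dbh, was in the tables, with RNA at 33.9 to 73.8 normalized reads in knockout and 32.9 to 82.5 in wild type.

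Mid1 RNA was high in 4 of 5 knockout hearts, and its footprints were not. RNA was at 700, 772, 563 and 632 normalized reads in knockout hearts 6, 7, 8 and 10 and at 119 in knockout heart 9, against 121, 88.3, 77.2 and 63.6 in wild-type hearts 1, 2, 3 and 4. The genotypes overlapped through knockout heart 9 alone, which lay between wild-type hearts 1 and 2. Footprints were at 56.1, 91.3, 45.2, 36.5 and 53.0 in knockout hearts 6, 7, 8, 9 and 10, against 47.9, 6.90, 81.0 and 47.7 in wild-type hearts 1, 2, 3 and 4. The lowest of these, in wild-type heart 2, was 2 reads of the shallowest library. The log2 fold change was 2.45 ± 0.46 for RNA (2.94 without knockout heart 9) and 0.64 ± 0.61 for footprints (limma adjusted p = 0.86), and the footprint value was -0.08 without wild-type heart 2 and 1.04 without wild-type heart 3.

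The ratio of Mid1 footprints to RNA was accordingly low where RNA was high. It was 0.0802, 0.118, 0.0802 and 0.0839 in knockout hearts 6, 7, 8 and 10 and 0.306 in knockout heart 9, against 0.396, 0.0782, 1.05 and 0.751 in wild-type hearts 1, 2, 3 and 4. In the 4 knockout hearts with high RNA, 2.83% to 4.14% of genes had a lower ratio. This share was 9.40% in knockout heart 9 and 12.8%, 3.17%, 37.1% and 27.3% in wild-type hearts 1, 2, 3 and 4. Wild-type heart 2, with low RNA and 2 footprint reads, thus lay inside the range of those 4 knockout hearts. The efficiency difference, footprints over RNA in knockout against wild type, was -1.82 ± 0.80 on the log2 scale (-2.55 without wild-type heart 2 and -1.36 without wild-type heart 3), a contrast in which 14.4% of all genes were called by limma, 7.83% higher and 6.55% lower. In the authors' deposited table Mid1 is tagged as buffered, with a log2 change of 2.45 that runs wild type over knockout, its sign being opposite to the fitted difference for all 5 members, and the other 4 members are tagged as unchanged. These tags rest in part on the RNA values on which the members were selected and are given as a description. Over the 9 hearts, RNA and footprints of the same gene had r = 0.38 for Mid1, against 0.99 for Ifi202b, 0.97 for Hsd17b7, 0.92 for Fbxo44 and 0.81 for Ptprn2. Reads of 1 heart's RNA and footprints share the animal, and these coefficients are descriptions.

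**Figure D3:**
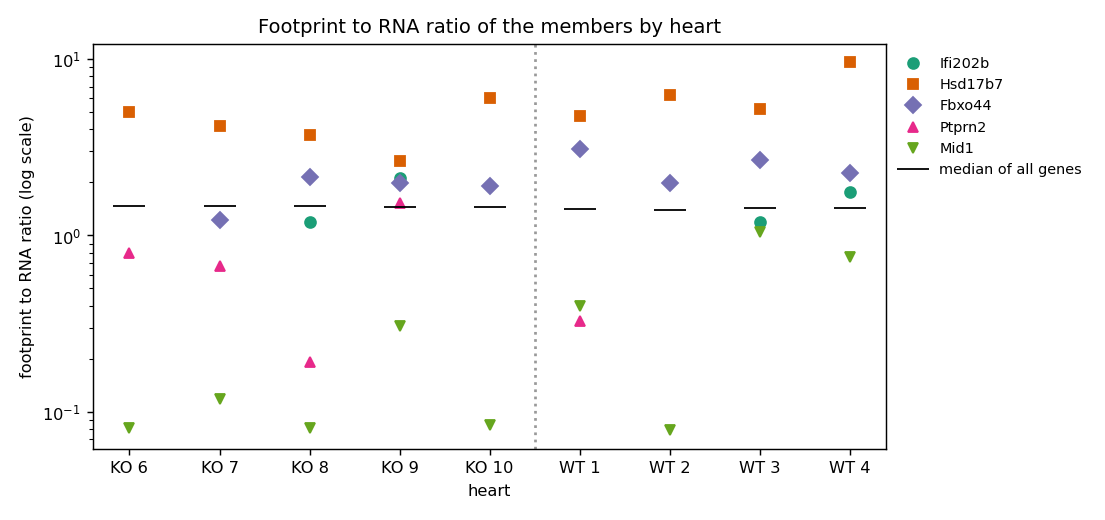
Footprint to RNA ratio of each member (log y axis), with knockout (KO) hearts left of the dotted line and wild-type (WT) hearts right of it, and the median over all genes as a black dash. Ratios of 0 and hearts without RNA are not drawn; Hsd17b7 lies above the median in all 9 hearts and Mid1 below it in all 9.

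For none of the 5 members were the genotypes free of overlap, in RNA or in footprints. For Ptprn2 RNA the overlap rested on knockout heart 10 (6 reads, 5.40 normalized) and wild-type heart 1 (4 reads, 5.57 normalized), which could not be ordered at this depth. Over all genes, the genotypes did not overlap for 40.5% in RNA and 1.60% in footprints. The members were chosen on these RNA values, so their overlap in RNA is no result. A second count took genes under 20 normalized reads in every library of 1 genotype, without overlap, and with a mean at least 4 times higher in the other. It held for 2 of 10597 genes (0.0189%), neither a member. They were ENSMUSG00000095406, at 42.1 in knockout and 2.67 in wild type on average, and Gm6020, which did not exceed 3 reads in any library. The count was 4 without wild-type heart 1 or 2. Spread within a genotype was measured as a highest heart of at least 50 normalized reads and at least 10 times the lowest heart plus 1. By this measure 22 of 10400 genes qualified in either genotype (0.212%), 18 among knockout hearts and 12 among wild-type hearts. Ifi202b and Hsd17b7 qualified in both genotypes, and Fbxo44 and Ptprn2 among knockout hearts, while Mid1 did not qualify. The members were chosen for such spread, so their number is no result.

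By the ratio of highest to lowest plus 1, Ifi202b ranked 4 of 10332 genes among knockout hearts and 1 of 10264 among wild-type hearts. Hsd17b7 ranked 9 in knockout and 3 in wild type, Ptprn2 5 and Fbxo44 10 in knockout, and Mid1 30 in knockout. The gene with the widest range among knockout hearts was Pom121l2, singled out after its values were seen. Its RNA was 2.26 and 2.80 in knockout hearts 6 and 7, the same hearts in which Fbxo44 was low, and 923, 1134 and 1026 in hearts 8, 9 and 10, against 1993, 1156, 893 and 963 in wild-type hearts. No footprint read of Pom121l2 was counted in any of the 9 hearts. The 6 other genes that qualified in both genotypes were Myl7, Tmprss13, Gabra5, Mybphl, Hspa1b and Hspa1a.

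The genes next to Ifi202b were mostly its own family. All 7 listed genes within 1 Mb were tested, and 4 fell in knockout RNA and none rose, against 49.4% of all genes called in either direction, 24.3% higher and 25.1% lower (limma, adjusted p below 0.05). Mndal RNA averaged 925 ± 40.2 in knockout and 1547 ± 121 in wild type (log2 fold change -0.74 ± 0.06, adjusted p = 3.4e-06). For Ifi204, which acts in innate DNA sensing, the log2 fold change was -0.64 ± 0.07 (adjusted p = 3.1e-05), for Ifi207 it was -0.95 ± 0.15 (adjusted p = 0.000278) and for Ifi203 -0.52 ± 0.12 (adjusted p = 0.00457). Ifi211 and Ifi205, at -0.39 ± 0.21 and -0.35 ± 0.19, did not pass (limma adjusted p = 0.136 and 0.155). These 6 genes are also the listed part of the 17 PYHIN genes other than Ifi202b (Aim2 is not analysed here), with a median log2 fold change of -0.58, against 0.01 over all genes. None of the 6 was called in footprints, where the median was 0.16. PYHIN genes are closely related in sequence, so the authors' counting could have split their reads and the values of single members are uncertain. Among the 4 that fell, r of RNA with Ifi202b went from -0.08 for Mndal to 0.58 for Ifi203. Within each genotype, Ifi203 RNA was highest in the hearts with Ifi202b RNA, at 1218 and 1461 in knockout hearts 8 and 9 and 1084, 1186 and 1072 in hearts 6, 7 and 10, against 1719 and 2210 in wild-type hearts 3 and 4 and 1385 and 1655 in hearts 1 and 2. Ifi203 footprints had the same split, at 279 and 365 in knockout hearts 8 and 9 and 178, 161 and 245 in hearts 6, 7 and 10, against 227 and 330 in wild-type hearts 3 and 4 and 124 and 114 in hearts 1 and 2. Ifi203 thus carried the Ifi202b order inside each genotype and a lower RNA level in knockout. Summed RNA of the 2 listed lymphocyte markers, Ighm and Igkc, was 149 to 256 in knockout and 277 to 376 in wild type, and its part in the lower PYHIN RNA was not tested.

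Interferon-stimulated genes, which share their inducer with Ifi202b, showed no common direction. Of 44 listed by name 35 were tested, and 8 rose, 7 fell and 20 did not pass, with a median of 0.04. Over all genes 24.3% rose and 25.1% fell. Those with the smallest adjusted p were Parp12 (-0.56 ± 0.09, adjusted p = 0.000368), Eif2ak2, the kinase PKR (-0.51 ± 0.10, adjusted p = 0.00113), Bst2, which tethers virions (0.73 ± 0.16, adjusted p = 0.00261), and Samd9l (-0.42 ± 0.10, adjusted p = 0.00462, limma).

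Around Hsd17b7, 2 of 9 neighbours fell and none rose, against 25.1% lower and 24.3% higher over all genes. Rgs4, a regulator of G protein signalling, fell by 0.41 ± 0.12 in log2 units (limma adjusted p = 0.0135), and Atf6, a sensor of endoplasmic reticulum stress, fell by 0.43 ± 0.06 (adjusted p = 0.000203). Ddr2, Uap1 and Gm7694 on one side and Rgs5 on the other did not pass. Rgs5, a pericyte marker, had a log2 fold change of 0.03 ± 0.19 (limma adjusted p = 0.909), and its RNA varied over the hearts with Hsd17b7 (r = 0.86) and against Ifi202b (r = -0.96). It was at 1619, 1672 and 1520 normalized reads in knockout hearts 6, 7 and 10 and 950 and 1030 in hearts 8 and 9, against 1453, 1678, 1133 and 1015 in wild-type hearts 1, 2, 3 and 4. The summed RNA of the 7 smooth muscle and pericyte markers, Rgs5 among them, was lowest in knockout hearts 8 and 9 (9224 and 8695, with 10365, 9629 and 9518 in hearts 6, 7 and 10) and in wild-type hearts 3 and 4 (9575 and 9138, with 11947 and 10729 in hearts 1 and 2). These are the hearts with Ifi202b RNA. Rgs5 is part of this sum, so the sum is not separate from the Rgs5 values. Between knockout heart 8 and knockout hearts 7 and 10, Rgs5 alone differed by more than the whole sum. The part of these cells in the pattern was not tested.

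Most genes of cholesterol synthesis did not pass the test. Of 25 genes of synthesis and its control 20 were tested, and 3 rose, 2 fell and 15 did not pass, with a median of 0.07. Over all genes 49.4% were called. The 3 that rose were regulators of the pathway's transcription factors, Insig1 (0.60 ± 0.13, limma adjusted p = 0.0025), Insig2 (0.40 ± 0.10, adjusted p = 0.00547) and Scap (0.35 ± 0.09, adjusted p = 0.0067). Those that fell were the enzymes Pmvk (-0.25 ± 0.08, adjusted p = 0.0275) and Sc5d (-0.32 ± 0.11, adjusted p = 0.0384). Nsdhl, which acts just before HSD17B7, was at 88.9 ± 7.38 in knockout and 85.8 ± 16.1 in wild type (limma adjusted p = 0.726). Lss is not analysed here. None of the 4 other 17-beta hydroxysteroid dehydrogenases tested (Hsd17b4, Hsd17b10, Hsd17b11 and Hsd17b12) passed.

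Fbxo44 sits in a gene-dense stretch with 31 tested neighbours within 1 Mb, of which 4 rose and 6 fell. Over all genes 24.3% rose and 25.1% fell. Agtrap, which lowers signalling of the angiotensin receptor, rose in RNA (log2 fold change 1.18 ± 0.16, limma adjusted p = 8.08e-05). It had 135 to 204 normalized reads of RNA in knockout hearts against 58.2 to 88.6 in wild-type hearts. Its footprints were at 402 to 696 in knockout hearts and 477 to 694 in wild-type hearts (log2 fold change -0.0005 ± 0.18, limma adjusted p = 0.999). Mad2l2 fell by 0.49 ± 0.10 (adjusted p = 0.0014). Miip (0.75 ± 0.25, adjusted p = 0.0279), Mfn2, a mitochondrial fusion factor (0.20 ± 0.07, adjusted p = 0.0329) and Mtor (0.20 ± 0.07, adjusted p = 0.04) also rose. Zfp991 (-0.79, adjusted p = 0.00106), Zfp933 (-0.57, adjusted p = 0.00249), Zfp979 (-0.52, adjusted p = 0.00562), Srm (-0.37, adjusted p = 0.0174) and Nppa (-0.79, adjusted p = 0.0452), which is also 1 of the 3 atrial markers, also fell. Fbxo6, the adjacent F-box gene, was at 556 ± 68.1 in knockout and 573 ± 72.6 in wild type (limma adjusted p = 0.763), and Angptl7 did not pass.

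In footprints 1 of 48 tested neighbours of the 5 members was called, against 0.0200% of all genes (2 of 9976). It was Nppb, encoding the natriuretic peptide BNP, 0.166 Mb from Fbxo44 (log2 fold change -0.97 ± 0.15, limma adjusted p = 0.0289). The call was lost, leaving 0 neighbours called, without any one of knockout hearts 6, 7, 8 and 9 or wild-type hearts 1, 2 and 3.

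Of the SCF ligase core and sugar-binding F-box genes, 6 of 10 were tested. Of these, 1 rose, 2 fell and 3 did not pass, with a median of -0.08, while 49.4% of all genes were called. Skp1a, the adaptor that binds F-box proteins, was at 1566 ± 34.9 in knockout and 2360 ± 62.2 in wild type (log2 fold change -0.59 ± 0.04, limma adjusted p = 1.29e-06). Nedd8, the modifier that activates cullins, fell by 0.29 ± 0.07 (adjusted p = 0.00371), and Rbx1, the RING subunit, rose by 0.22 ± 0.07 (adjusted p = 0.0276). None of the 6 was called in footprints, against 0.0200% of all genes, and Skp1a footprints had a log2 fold change of -0.11 ± 0.12 (limma adjusted p = 0.881). Fbxo2 is not analysed here.

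The genes most like Fbxo44 over the 9 hearts were Hnmt (r = 0.98), which inactivates histamine and lies on chromosome 2, and Gm13212 and Zfp982 (both r = 0.97), which lie 2.53 Mb and 0.637 Mb from Fbxo44. Their footprints had r = 0.69, 0.76 and -0.28 with those of Fbxo44. Footprints did not exceed 19.7 normalized reads for Gm13212 and 28.2 for Zfp982, so the coefficients of these genes rest on few reads. Gm13212 RNA was at 151 and 120 normalized reads in knockout hearts 6 and 7 and 584, 808 and 659 in hearts 8, 9 and 10, against 462, 416, 500 and 898 in wild-type hearts 1, 2, 3 and 4. Zfp982 RNA was at 50.5 and 69.2 in knockout hearts 6 and 7 and 230, 207 and 225 in hearts 8, 9 and 10, against 134, 136, 144 and 272 in wild-type hearts. In both, as in Fbxo44, knockout hearts 6 and 7 were lowest and wild-type heart 4 was the highest wild-type heart. Wild-type heart 4 was above all knockout hearts for both genes and below knockout hearts 8, 9 and 10 for Fbxo44. Of the 20 genes with the highest absolute r, 6 were on chromosome 4, which held 6.39% of genes, and 5 of them were within 10 Mb. With genotype means subtracted, 9 of 20 were on chromosome 4, all within 10 Mb.

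Other genes of this stretch ran the opposite way. Rbp7, a retinol-binding protein gene 1.29 Mb from Fbxo44 and singled out after its values were seen, had 535 and 529 normalized reads of RNA in knockout hearts 6 and 7 and 116, 141 and 140 in hearts 8, 9 and 10, against 412, 441, 329 and 142 in wild-type hearts 1, 2, 3 and 4. Its footprints did the same, at 1469 and 1711 in knockout hearts 6 and 7 and 324, 425 and 374 in hearts 8, 9 and 10, against 1127, 1049, 1113 and 356 in wild-type hearts. Hearts high in Rbp7 were low in Fbxo44, and wild-type heart 4 resembled knockout hearts 8, 9 and 10. Zfp990, 2.62 Mb away, was at 214 and 216 in knockout hearts 6 and 7 and 55.2, 58.8 and 60.3 in hearts 8, 9 and 10, against 224, 228, 219 and 141 in wild-type hearts.

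Genes with a profile like that of a member were then counted by position. With genotype means subtracted, an absolute r of at least 0.8 was reached by 33 of 155 genes within 10 Mb of Fbxo44 (21.3%, against 3.18% of all genes), by 23 of 110 around Ifi202b (20.9%, against 6.66%) and by 21 of 102 around Hsd17b7 (20.6%, against 7.89%). The Ifi202b and Hsd17b7 windows overlap. Near Ptprn2 it was reached by 1 of 59 genes (1.69%, against 0.804%) and near Mid1 by 0 of 25 (against 1.55%). As measured, without subtracting means, the shares were 9.03% against 0.785% for Fbxo44, 5.46% against 1.75% for Ifi202b, 7.84% against 2.00% for Hsd17b7, 18.6% against 5.43% for Ptprn2 and 12% against 17.8% for Mid1. Genes of 1 stretch share the 9 libraries, and the r values describe these hearts only.

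**Figure D4:**
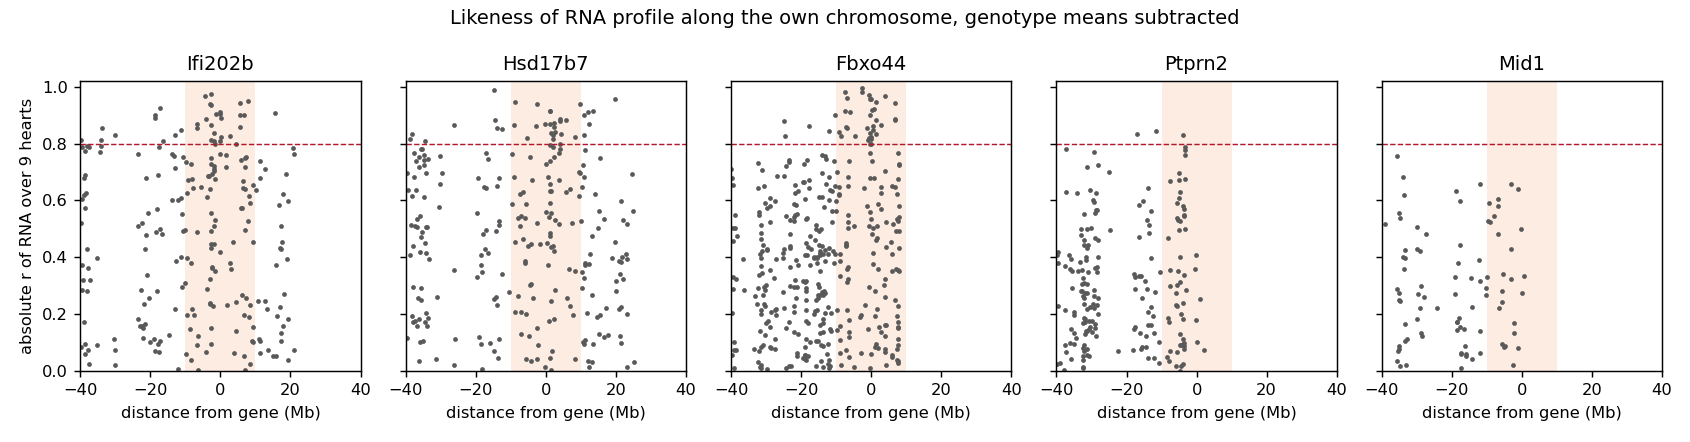
Absolute Pearson r of RNA with each member over the 9 hearts, genotype means subtracted, against distance from the member on its own chromosome in Mb (1 point per gene, shading within 10 Mb, dashed line at 0.8). Points above the line crowd near Fbxo44 (33 of 155 genes within 10 Mb), Ifi202b and Hsd17b7, and none of 25 genes near Mid1 lies above it.

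The genes most like Ifi202b were Gsta1, a glutathione transferase (r = 0.96), Fam126a (r = 0.96) and Vldlr, the very low density lipoprotein receptor (r = 0.95), on 3 other chromosomes. Their footprints had r = 0.48, 0.54 and -0.17 with those of Ifi202b. Gsta1 footprints did not exceed 20.0 normalized reads, so its coefficient rests on few reads. Gsta1 RNA was at 175 and 167 in knockout hearts 8 and 9 and 78.4, 73.4 and 89.1 in hearts 6, 7 and 10, against 154 and 180 in wild-type hearts 3 and 4 and 106 and 92.4 in hearts 1 and 2. On chromosome 1, Sccpdh, 5.69 Mb from Ifi202b, had r = 0.94 with it and -0.93 with Hsd17b7, and its footprints had r = 0.86 and -0.90. Its RNA was at 1046 and 1256 in knockout hearts 8 and 9 and 726, 737 and 743 in hearts 6, 7 and 10, against 1026 and 1369 in wild-type hearts 3 and 4 and 635 and 819 in hearts 1 and 2. The genes most like Hsd17b7 were Shroom3, Gm1673 and Adora2a, each with r = 0.92 and none on chromosome 1, and with footprint r of 0.02, 0.32 and 0.03.

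Neighbours of Ptprn2 gave 1 call in 5, against 49.4% of all genes. Sp4 fell by 0.36 ± 0.13 (limma adjusted p = 0.0349), and Zfp386, Wdr60, Esyt2 and Rapgef5 did not pass. The genes most like Ptprn2 were Nup155 and Lrrc61 (both r = 0.93) and Zfp383 (r = 0.92), on 3 other chromosomes, with footprint r of -0.07, -0.49 and 0.29. Their ranges were narrow beside that of Ptprn2, with Nup155 at 201 to 264 in knockout and 158 to 187 in wild type. Of 22 genes of dense-core vesicles and regulated secretion 7 were tested. Of these, 3 rose and 2 fell, with a median of 0.07, while 24.3% of all genes rose and 25.1% fell. Those with the smallest adjusted p were the vesicle fusion protein Vamp2 (0.46 ± 0.08, limma adjusted p = 0.000397), the calcium sensor Syt7 (0.40 ± 0.10, adjusted p = 0.00535), the prohormone processing enzyme Cpe (0.20 ± 0.06, adjusted p = 0.0135) and Pam, which amidates peptides (-0.37 ± 0.11, adjusted p = 0.0171). Ptprn and Chga are not analysed here.

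Next to Mid1, Gm21887 fell by 0.60 ± 0.18 (limma adjusted p = 0.0179), and Hccs and Asmt did not pass. The genes most like Mid1 were Prph, Tha1 and Isoc2b, each with r = 0.97, and with footprint r of 0.98, 0.45 and -0.62. In wild-type heart 2, the shallowest footprint library, Prph footprints were at 0 and Mid1 footprints at 6.90 normalized reads. Prph, which encodes the intermediate filament peripherin, had RNA at 55.0, 56.6, 45.2 and 48.6 in knockout hearts 6, 7, 8 and 10 and 29.0 in knockout heart 9, against 22.3, 16.3, 15.2 and 16.2 in wild-type hearts 1, 2, 3 and 4. Knockout heart 9 was thus lowest of the knockout hearts for both genes. Ptprn2 and Mid1 RNA had r = 0.86 and their footprints r = 0.03, and the pair differed in knockout heart 10, where Mid1 was at 632 and Ptprn2 at 5.40.

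Of the partners of MID1 in the alpha4, PP2A and mTORC1 pathway 10 of 11 were tested. Of these, 4 rose, 3 fell and 3 did not pass, with a median of -0.01, while 49.4% of all genes were called. Ppp2r1a, the PP2A scaffold, was at 2679 ± 83.0 in knockout and 1630 ± 106 in wild type (log2 fold change 0.72 ± 0.05, limma adjusted p = 1.39e-06). Mlst8, an mTORC1 subunit, fell by 0.79 ± 0.08 (adjusted p = 1.47e-05), the S6 kinase gene Rps6kb1 fell by 0.72 ± 0.09 (adjusted p = 5.43e-05), and Ppp2ca, a catalytic subunit of PP2A, rose by 0.22 ± 0.05 (adjusted p = 0.00229). Ppp2cb, the other catalytic subunit gene, fell by 0.26 ± 0.06 (limma adjusted p = 0.00526). Igbp1, which encodes alpha4, was at 622 ± 25.9 in knockout and 605 ± 31.9 in wild type (limma adjusted p = 0.595), and Mid2, the paralogue of Mid1, at 194 ± 8.86 in knockout and 212 ± 39.2 in wild type (adjusted p = 0.442). None of the 10 was called in footprints, against 0.0200% of all genes. Footprint log2 fold changes were 0.20 ± 0.11 for Ppp2r1a, -0.08 ± 0.21 for Mlst8, 0.27 ± 0.17 for Rps6kb1, -0.16 ± 0.10 for Ppp2ca and -0.14 ± 0.15 for Ppp2cb.

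Over the 7 lists, 39 of 88 genes were called in RNA, 19 higher and 20 lower, against 49.4% of all genes. In footprints limma called none of 87, against 2 of 9976 over all genes (0.0200%). An unadjusted limma p under 0.05 was reached by 4 of the 87, against 505 of 9976 over all genes. On whole reads edgeR and DESeq2 also called 0 of the 87, against 2 and 6 of 9976.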

How the data were processed

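The deposited values for RNA and for footprints are a normalized signal, 1 per gene and heart, which the authors made on GRCm38 with STAR 2.7.1a, HTSeq and DESeq2, per the submitters' processing notes, with no role or order given. Another table deposited by the authors gives each heart's footprint to RNA ratio. Deposited log2 fold changes and p-values are named where used, per the file headers. Dividing by the smallest step turned 100% of values into whole reads in each library (tolerance 0.01 reads).

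Genotypes were compared in R 4.3.3 with limma 3.58.1 (trend) on log2(value + 1) for genes averaging at least 10, with Benjamini-Hochberg adjustment over all genes tested and 0.05 as the threshold, for RNA (10580 genes), footprints (9976) and efficiency (genotype by assay interaction, 9974). The code was tested on simulated data. edgeR 4.0.16 and DESeq2 1.42.0 on whole footprint reads, leaving out each heart, other scalings, filters and added values were alternatives. RNA and footprints came from the same heart; over 3233 abundant genes, deviations of the 2 libraries of a heart had r of 0.277 to 0.662, and 7 of 9 hearts matched their own library best; the pairing itself comes from the labels, which give both libraries of a heart the same number.

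The members and lists were chosen with earlier results of these data known. Besides members, the text names Nbdy, the 3 genes most like each member, the nearest 3 listed genes on each side within 1 Mb, called neighbours, and of each list up to 4 called genes with the smallest adjusted p and those closest in role; a few genes that this rule names are not reported here. The measure of spread within a genotype and the likeness with genotype means subtracted were added after seeing the data. Positions were found for 10433 of 10597 genes and promoters for 5 of 5 members in RefSeq tables.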

Additional observations from a re-analysis of the deposited data

Results flagged for a closer look

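Of 20 sets of member values checked (5 members, 2 assays, 2 genotypes), 1 held a heart far from the others. Ptprn2 footprints in wild-type heart 2 were at 13.8 normalized reads, against 1.82, 0 and 1.52 in wild-type hearts 1, 3 and 4, and the gap to the next heart was 0.868 of the range. The value is 4 reads of the shallowest footprint library. Chance marks about 1 in 20 such sets.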

How the results depend on the processing

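The fold changes of the members were recomputed in 210 values under the alternatives; 12 values in 5 results had the opposite sign. All 210 stayed within 1 SD of the replicates, which says little about stability in genes chosen for their wide spread. The count of genes called in footprints, 2 of 9976, was 0 without a filter on low values, 6 with DESeq2 on whole reads (2 higher and 4 lower) and 0 to 3 on leaving out 1 heart; it was 0 without wild-type heart 1, 2 or 3 and 1 without knockout heart 6, 7, 8 or 9. The 1 neighbour called in footprints became 0 without that filter and 0 to 1 on leaving out 1 heart. The count of genes on in 1 genotype and off in the other, 2, was 2 to 4 on leaving out 1 heart, with 4 without wild-type heart 1 or 2. Efficiency calls were 1434 (781 higher and 653 lower), and 1556 with the heart as a replicate block (744 higher and 812 lower); quantile normalization gave 1309 (618 higher and 691 lower). The pairing cannot move a member's efficiency fold change, since every heart has both assays. RNA calls numbered 2570 higher and 2660 lower, and 2661 higher and 2604 lower with TMM factors. Depth limits values under 3 reads, which include Ifi202b in 5 hearts and Ptprn2 in 3 wild-type RNA libraries; edgeR and DESeq2 were run on footprints only.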
